A study of Mus musculus with 3 samples.

Results

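The 10 genes described here mark T cells and natural killer (NK) cells: the CD3 chain genes Cd3d, Cd3e and Cd3g, the zeta chain gene Cd247, the kinase gene Lck, the coreceptor genes Cd4, Cd8a and Cd8b1, and the cytotoxic granule genes Nkg7 and Gzmb. Every probe whose gene name in the scanner files was 1 of these symbols was taken, control spots aside, which gave 18 of 41169 probes and 10 of 27957 gene names. The probes were read on 3 single-colour Agilent arrays, each hybridised with pooled muscle RNA of 10 male mice aged 6 weeks. One pool came from nonswimming mice on normal food, one from swimming mice on normal food, and one from swimming mice on food with 0.5% Chlorella powder, Chlorella being a unicellular green alga. RNA was isolated after 14 days, and the labels do not name the muscle. Each group had 1 array, so no difference has a replicate check and no test between groups was possible. All 12 skeletal muscle markers examined, among them Acta1, Ckm and Myh4, were well above background on each array.

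T cells recognise antigen through a receptor whose antigen-binding chains have almost no tail inside the cell, so the signal passes through the CD3 chains and the zeta chain. Lck, a kinase held at the tails of CD4 and CD8, phosphorylates these chains, and the coreceptors CD4 and CD8 bind the MHC class II and class I molecules of the presenting cell. Cytotoxic T cells and NK cells kill target cells with granules that hold granzymes such as granzyme B, and NKG7 is a membrane protein of those granules. Resting muscle is known to hold few T cells, and T cells are known to enter it after injury.

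The sequences just upstream of the start sites are shown first for the CD3 genes, which lie next to each other on chromosome 9 and did not share 1 pattern over the arrays, and for Lck and Nkg7, which had large differences. RefSeq promoters of build GRCm38.p6 were found for 8 of the 10 genes, 9 promoters in all since Lck has 2 start sites. Each line gives the 250 bases before the annotated start, 5′ to 3′ on the strand of the gene. Capitals mark matches to 6 short motifs searched on both strands: the ETS core CAGGAAG, the RUNX core TGTGGT, the E-boxes CACCTG and CAGCTG, the TCF/LEF core CTTTGA and the GATA core AGATAA.
Cd3g, chr9:44980432-44980681, minus strand: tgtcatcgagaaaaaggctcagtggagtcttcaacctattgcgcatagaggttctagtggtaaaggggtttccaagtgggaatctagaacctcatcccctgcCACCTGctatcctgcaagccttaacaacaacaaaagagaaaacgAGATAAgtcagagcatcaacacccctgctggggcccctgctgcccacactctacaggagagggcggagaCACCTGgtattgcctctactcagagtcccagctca
Cd3d, chr9:44981536-44981785, plus strand: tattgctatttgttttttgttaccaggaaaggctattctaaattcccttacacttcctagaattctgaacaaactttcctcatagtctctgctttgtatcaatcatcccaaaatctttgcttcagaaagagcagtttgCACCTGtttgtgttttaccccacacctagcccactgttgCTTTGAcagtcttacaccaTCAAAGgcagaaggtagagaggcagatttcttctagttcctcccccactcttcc
Cd3e, chr9:45009612-45009861, minus strand: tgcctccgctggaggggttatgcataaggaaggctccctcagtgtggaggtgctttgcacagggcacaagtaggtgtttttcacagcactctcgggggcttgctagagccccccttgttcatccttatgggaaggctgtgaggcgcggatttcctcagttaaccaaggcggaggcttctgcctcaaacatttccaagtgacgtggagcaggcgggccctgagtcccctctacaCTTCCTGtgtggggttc
Lck, start 1, chr4:129558373-129558622, minus strand: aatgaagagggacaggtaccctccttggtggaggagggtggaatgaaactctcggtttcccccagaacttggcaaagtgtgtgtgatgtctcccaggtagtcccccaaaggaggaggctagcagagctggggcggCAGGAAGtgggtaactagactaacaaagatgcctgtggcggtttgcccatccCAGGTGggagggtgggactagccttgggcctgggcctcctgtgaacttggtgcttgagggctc
Lck, start 2, chr4:129573642-129573891, minus strand: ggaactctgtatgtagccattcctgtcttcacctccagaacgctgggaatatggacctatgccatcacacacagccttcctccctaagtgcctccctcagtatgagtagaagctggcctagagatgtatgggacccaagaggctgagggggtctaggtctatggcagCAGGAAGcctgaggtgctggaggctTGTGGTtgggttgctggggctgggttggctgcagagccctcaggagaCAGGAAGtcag
Nkg7, chr7:43436888-43437137, plus strand: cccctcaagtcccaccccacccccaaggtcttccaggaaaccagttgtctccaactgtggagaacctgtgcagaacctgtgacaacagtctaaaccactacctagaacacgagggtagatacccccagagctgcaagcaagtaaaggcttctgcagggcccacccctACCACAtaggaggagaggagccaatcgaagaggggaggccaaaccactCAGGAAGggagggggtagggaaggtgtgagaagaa

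None of these motifs contains another. Among 32851 promoters of the same length, the ETS core was present in 10.8%, the RUNX core in 14.0%, CACCTG in 17.2%, CAGCTG in 13.0%, the TCF/LEF core in 13.8% and the GATA core in 9.99%. Cd3g and Cd3d are transcribed away from each other, so their upstream sequences face one another. Both hold CACCTG, at 148 and 35 bases before the start of Cd3g and 112 bases before that of Cd3d, and Cd3d has TCF/LEF cores at 73 and 54 bases. Cd3e has an ETS core at 17 bases and no E-box. Both Lck start sites have ETS cores, at 115 bases for the first and at 83 and 11 bases for the second. The first also has CACCTG at 63 bases and the second a RUNX core at 58 bases. Nkg7 has an ETS core at 35 bases and a RUNX core at 83 bases. Promoters not shown held such matches too: Cd247 an ETS core at 57 bases and CACCTG at 10, and Gzmb RUNX cores at 93 and 34 bases. Cd247 and Gzmb differed by less than 2-fold between swimming and nonswimming. Cd8a had 0 matches. The matches are descriptions of letters, and binding was not measured.

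On the swimming array Cd3d, Lck and Nkg7 were higher than on the nonswimming array by log2 differences of 2.64 to 3.09, and they were low again with Chlorella. Cd3g followed the same order. Cd3e, Cd247, Cd4 and Gzmb differed by less than 2-fold between the swimming and nonswimming arrays. The values are processed signals in intensity units, and log2 differences are between signals scaled to the 75th percentile of each array. The ± beside a difference comes from the scanner software's error for each probe signal and does not cover differences between mice or pools. In bulk tissue, fewer cells of a type and less RNA per cell cannot be told apart.

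**Figure D1:**
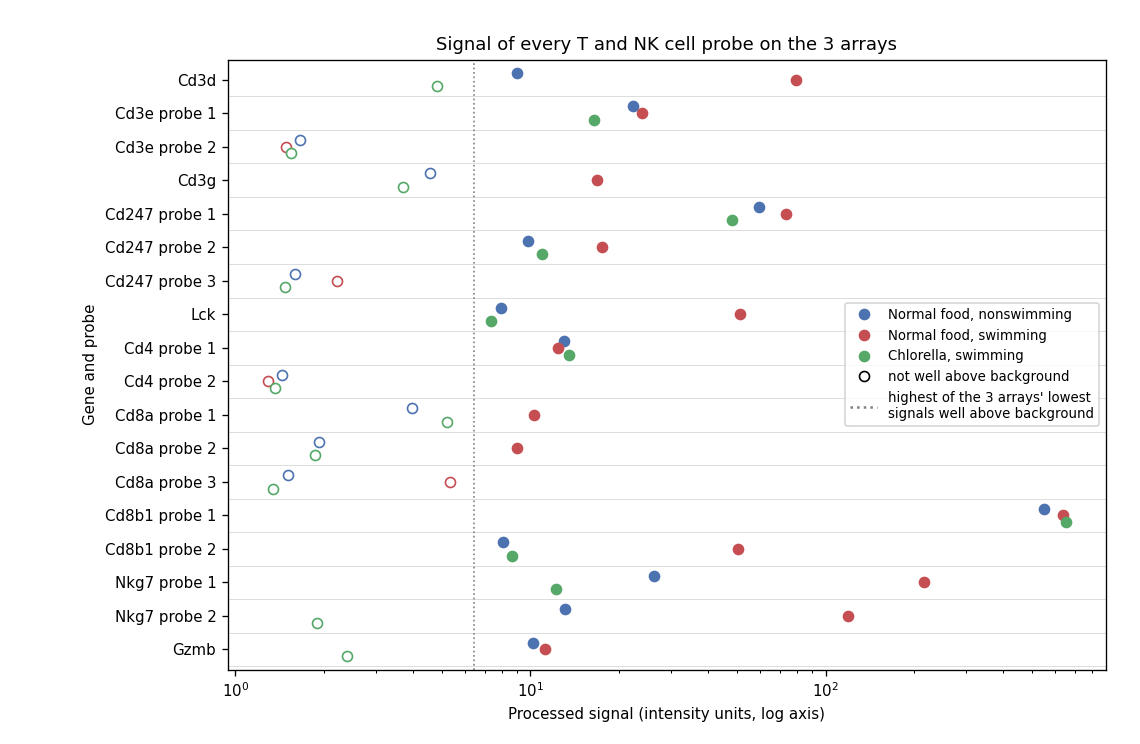
Processed signal of each of the 18 probes (rows) on the nonswimming (blue), swimming (red) and Chlorella (green) arrays, in intensity units on a log axis; open points are not well above background, and the dotted line is the highest of the 3 arrays' lowest signals well above background, 6.45. The swimming point of Cd3d, Cd3g, Lck, both Nkg7 probes and Cd8b1 probe 2 lies far to the right of the other two, while Cd3e probe 1 and Cd4 probe 1 have their 3 points close together.

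Among the chains that carry the receptor signal, the Cd3d probe (NM_013487, chromosome 9, 44920433 to 44920664) had a signal of 8.99 in the nonswimming pool, 79.3 in the swimming pool and 4.83 in the Chlorella pool, where it was not well above background. It stood out on the swimming array, with a log2 difference of 3.09 ± 0.29 from the nonswimming array. Against the Chlorella array the value is a bound, because a probe not well above background has no measured level: Cd3d was at least 10.2-fold lower in the Chlorella pool than in the swimming pool. The bound against the nonswimming pool was 1.19-fold. Bounds set the bright signal against the higher of the dim probe's own signal and the lowest signal well above background on that array, which was 6.45, 5.78 and 6.26 on the nonswimming, swimming and Chlorella arrays. Probe positions are those in the scanner files, and their genome build and exon annotation were not given in the sources used here.

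Cd3g, the gamma chain gene, was well above background on the swimming array alone, with signals of 4.56, 16.8 and 3.70 on the nonswimming, swimming and Chlorella arrays (NM_009850, chromosome 9, 44907978 to 44908562). By its bounds the swimming value exceeded the nonswimming one at least 2.52-fold, and the Chlorella value was at least 2.16-fold lower than the swimming one. Cd3e, which encodes the epsilon chain, did not share this order. Its brighter probe (NM_007648, chromosome 9, 44933516 to 44933575) read 22.2 in the nonswimming pool, 23.8 in the swimming pool and 16.4 in the Chlorella pool. The differences were 0.05 ± 0.23 for swimming against nonswimming and -0.23 ± 0.25 for Chlorella against swimming, both within the scanner error. The other Cd3e probe, with signals from 1.48 to 1.66, was not well above background on any array.

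Cd247, the zeta chain gene, had 2 probes well above background on all arrays, and both were highest on the swimming array by less than 2-fold. The brighter one (BC052824, chromosome 1, 165832436 to 165832495) read 59.3, 73.5 and 48.1 on the nonswimming, swimming and Chlorella arrays. Its log2 differences were 0.27 ± 0.21 for swimming against nonswimming and -0.30 ± 0.21 for Chlorella against swimming. The next Cd247 probe read 9.82, 17.4 and 10.9, with differences of 0.78 ± 0.32 and -0.36 ± 0.29. The last Cd247 probe was not well above background on any array. Summed over the 4 chain genes, each by its brightest probe, the scaled signal was 33.3, 65.5 and 30.7 percent of the 75th percentile on the nonswimming, swimming and Chlorella arrays. Of this, Cd3d gave 3.15, 26.9 and 2.03 percent and Cd3e 7.78, 8.07 and 6.89 percent, so most of the difference came from Cd3d. Signals of Cd3d and Cd3g that were not well above background are in the sum.

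Lck, the kinase that acts on these chains, had 1 probe (NM_010693, chromosome 4, 128993249 to 128993308), with a signal of 7.95 in the nonswimming pool, 51.2 in the swimming pool and 7.34 in the Chlorella pool. It was high on the swimming array alone, and the nonswimming and Chlorella values differed by 0.15 ± 0.42 on the log2 scale, within the scanner error. The swimming value was higher than the nonswimming value by 2.64 ± 0.33, and Chlorella against swimming was -2.49 ± 0.34. The levels of Lck outside the swimming array lay just above the lowest signals well above background. With normexp background correction, which adds an offset of 50 to each signal, the Lck differences were 0.77 and -0.49 and no longer reached 2-fold, and that of Cd3d in swimming against nonswimming was 1.14.

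The coreceptor Cd4, the mark of helper T cells, had its brighter probe printed in 10 spots per array, and the spots of the 3 arrays overlapped. The mean signal per spot was 13.0 ± 2.70 (SD, n = 10 spots) in the nonswimming pool, 12.4 ± 1.53 (SD, n = 10 spots) in the swimming pool and 13.5 ± 3.01 (SD, n = 10 spots) in the Chlorella pool. Spots of 1 array share 1 RNA pool, so this spread is technical. The log2 differences were -0.11 ± 0.32 for swimming against nonswimming and 0.44 ± 0.31 for Chlorella against swimming. The other Cd4 probe was not well above background on any array.

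Cd8a, which encodes the alpha chain of the coreceptor of cytotoxic T cells, had higher repeat spots on the swimming array, with some overlap. Its brightest probe (AK088414, chromosome 6, 71396848 to 71396907) was also printed in 10 spots, of which 1 on the nonswimming array was flagged and left out. The spots ranged from 1.81 to 7.10 with a median of 4.08 on the nonswimming array. They ranged from 6.68 to 15.9 with a median of 10.6 on the swimming array, and from 1.75 to 8.14 with a median of 4.67 on the Chlorella array. Scaled to the array's 75th percentile, the spots ran from 0.634 to 2.48 percent of it on the nonswimming array, from 2.26 to 5.39 on the swimming array and from 0.736 to 3.42 on the Chlorella array, so the upper Chlorella spots overlapped with the lower swimming spots. None of the kept nonswimming spots, 9 of the swimming spots and 2 of the Chlorella spots were well above background. As the probe was well above background on the swimming array alone, its differences are bounds, at least 1.55-fold higher than on the nonswimming array and at least 1.32-fold lower with Chlorella. A further Cd8a probe had signals of 1.92, 8.98 and 1.86 on the nonswimming, swimming and Chlorella arrays, again well above background on the swimming array alone, and the last one was not well above background on any array.

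**Figure D2:**
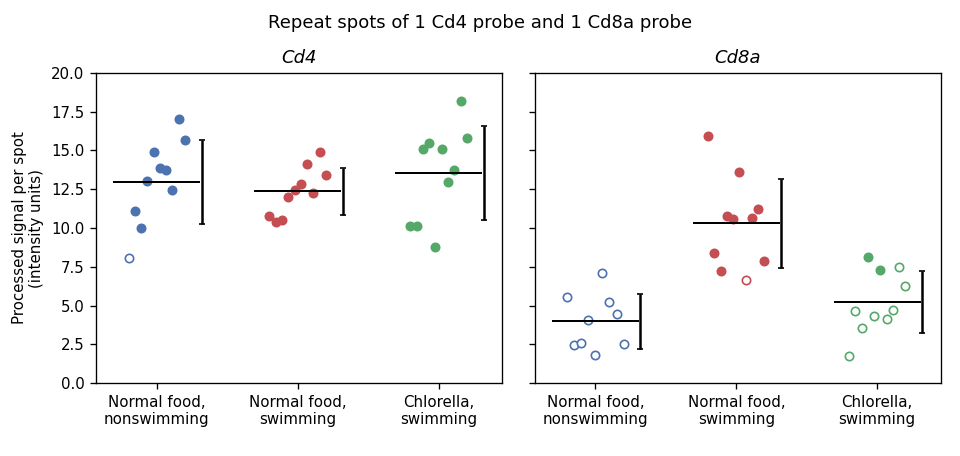
Processed signal (intensity units, linear axis) of each repeat spot of the Cd4 probe and the Cd8a probe that were printed 10 times per array; the horizontal line is the mean, the bar beside it is 1 SD either way, and open points are spots not well above background. The Cd4 means lie at 13.0, 12.4 and 13.5 with overlapping spots, and the Cd8a swimming spots, mean 10.3, overlap in part with the nonswimming and Chlorella spots, means 3.98 and 5.23.

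The probes named Cd8b1, the beta chain gene of the same coreceptor, differed between the arrays in unlike ways. The probe for NM_009858 (chromosome 6, 71355005 to 71355063) had signals of 8.06, 50.6 and 8.63 on the nonswimming, swimming and Chlorella arrays. It was higher on the swimming array by 2.60 ± 0.31 and lower with Chlorella by a log2 difference of -2.24 ± 0.29, while Chlorella against nonswimming was 0.36 ± 0.37. The probe for BC025208 read 549, 638 and 652, with differences of 0.17 ± 0.20 and 0.34 ± 0.20. That brighter probe lies on chromosome 5 (114364254 to 114364313) in the scanner files, whereas the other Cd8b1 probe and the Cd8a probes lie on chromosome 6. It shares 2 accessions in the files with a probe 4115 bases away that is named 2410014A08Rik, whose RefSeq symbol is Mlec. Of 24262 probes whose chromosome could be set against the RefSeq gene table, 66 (0.272%) lie on another chromosome than their gene name's, and this was the only one of the 18 probes here.

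In the authors' deposited table, Cd8b1 had a log2 difference of 1.40 for swimming against nonswimming and of -0.98 for Chlorella against swimming. These values equal, within 0.01 log2 and after 1 constant per comparison, the mean over both Cd8b1 probes. The same averaging matched the authors' deposited table for 2916 of 2928 genes with 2 probe spots well above background (99.6%), and 8.31% or less of the genes with 3 or more spots or with a dim spot. The authors' deposited table therefore gives for Cd8b1 a value between those of the chromosome 6 and chromosome 5 probes. The table held 6 of the 10 genes, and its differences for Lck were 2.65 and -2.52, close to those from the scanner files.

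Of the granule genes, Nkg7 was highest on the swimming array by both of its probes. Its brighter probe (NM_024253, chromosome 7, 39613682 to 39613741) read 26.2 in the nonswimming pool, 215 in the swimming pool and 12.2 in the Chlorella pool. It was higher on the swimming array by 2.99 ± 0.22 and differed by -3.83 ± 0.26 between Chlorella and swimming. Chlorella lay below nonswimming as well, by -0.84 ± 0.28, which is less than 2-fold. The other Nkg7 probe read 13.1, 119 and 1.89, was not well above background with Chlorella, and was there at least 15.3-fold lower than on the swimming array. With normexp correction the Nkg7 differences were 1.69 and -1.77. With the mean over both probes, Chlorella against nonswimming was -1.68, past 2-fold. That mean takes the signal of 1.89 as measured, although that probe's bound against nonswimming was 1.74-fold, so neither probe showed a 2-fold difference there.

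Gzmb, the gene of granzyme B, did not follow Nkg7. Its probe (NM_013542, chromosome 14, 51126432 to 51126491) read 10.2 in the nonswimming pool, 11.2 in the swimming pool and 2.39 in the Chlorella pool. The difference between the first pair, 0.08 ± 0.36, was within the scanner error. With Chlorella the probe was not well above background, which gives at least 1.44-fold lower against swimming, so a 2-fold difference was not shown at this signal.

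**Figure D3:**
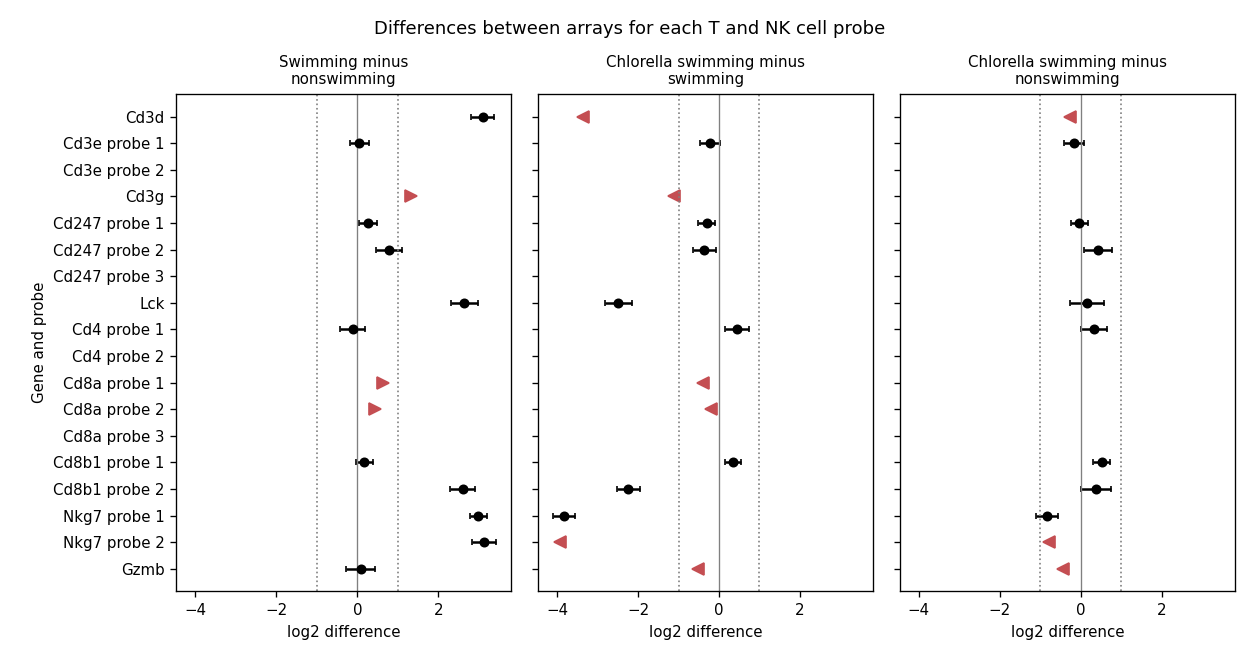
Log2 difference of each probe in the 3 comparisons; black points are measured on both arrays with the scanner error of the 2 probes as the bar, red triangles are bounds that point in the direction of a larger difference, dotted lines mark 2-fold, and probes with neither array well above background are left blank. Cd3d, Lck, both Nkg7 probes and Cd8b1 probe 2 lie past the 2-fold line on the right in swimming against nonswimming and past that on the left in Chlorella against swimming, while all measured points lie within 2-fold in Chlorella against nonswimming.

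Counted by the brightest probe of each gene, 3 of 8 genes measured on both arrays, Cd3d, Lck and Nkg7, were at least 2-fold higher in swimming than in nonswimming mice and none was lower, where 5.14% of 15765 measured genes were higher and 1.08% lower. The median of the 8 genes was 0.22 and that of all measured genes was -0.04. Of the genes well above background on 1 of the 2 arrays, Cd3g was at least 2-fold higher by its bound and Cd8a was not, and 24.2% of 1633 such genes overall were higher by their bound. These 1633 include genes seen on the nonswimming array alone, which could not be higher by a bound. Cd3g and Cd8a were seen on the swimming array alone, and the share among genes like them is larger. Leaving out the Cd8b1 probe on chromosome 5, an alternative chosen after the data were seen, made Cd8b1 a further gene past 2-fold, 4 of 8. The chromosome 6 probe read 8.06 on the nonswimming and 8.63 on the Chlorella array, near the lowest signals well above background, as did Lck. Its differences were not computed with normexp correction.

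In the comparison of Chlorella with normal food in swimming mice, 2 of 6 measured genes, Lck and Nkg7, were at least 2-fold lower and none was higher, where 4.86% of 15611 measured genes were lower and 1.40% higher. The median was -0.26 for the 6 genes and 0.08 for all measured genes. Cd3d and Cd3g were at least 2-fold lower by their bounds, and Cd8a and Gzmb were not, while 25.7% of 1638 genes well above background on 1 of the 2 arrays were lower by their bound. These 1638 include genes seen on the Chlorella array alone, which could not be lower by a bound, so the share among genes seen on the swimming array alone is larger. Without the chromosome 5 probe, Cd8b1 joined the lower genes, 3 of 6.

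In Chlorella swimming against nonswimming mice on normal food, where both swimming and food differ, 0 of 6 measured genes were past 2-fold in either direction, beside 2.10% of 15440 genes higher and 1.48% lower. The measured values ran from -0.84 for Nkg7 to 0.52 for the bright Cd8b1 probe, and the median was 0.06, with 0.04 for all measured genes. This difference is the sum of the other 2, since the comparisons share arrays, and adds no separate measurement. Over both comparisons with the swimming array, 4 of the 10 genes, Cd3d, Cd3g, Lck and Nkg7, were at least 2-fold higher on it than on either other array, measured or by bound. Of the 16910 genes well above background on the swimming array, 907 (5.36%) had that order. Cd3g entered that count by bounds, through the swimming array alone. By scaled signal, 12 of the 14 probes well above background on at least 1 array were highest on the swimming array, as were 26.8% of 25949 probes overall. All 14 were well above background on the swimming array. Those of Cd3g and Cd8a were so on it alone, so their place was set by the filter and is no support for a peak there.

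The probes for the antigen-binding chains of the receptor itself, a set added after the values of the 10 genes were seen, were mostly dim. Of 16 such probes 5 were well above background on the swimming array and 3 on each of the other arrays. Measured on all arrays were 3 probes of 1 accession, U07661, named Tcrb-V13 in the files, which read 11.0, 46.3 and 15.3, then 15.9, 71.8 and 17.5, and then 27.8, 105 and 26.7 on the nonswimming, swimming and Chlorella arrays. Each was highest on the swimming array, by log2 differences of 1.88 to 2.13 against nonswimming. A pair of Tcra probes was well above background on the swimming array alone, with signals of 21.9 and 6.34, and the second lies below the lowest nonswimming signal well above background, so no order can be given for it. The 5 gamma chain probes were not well above background on any array.

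**Figure D4:**
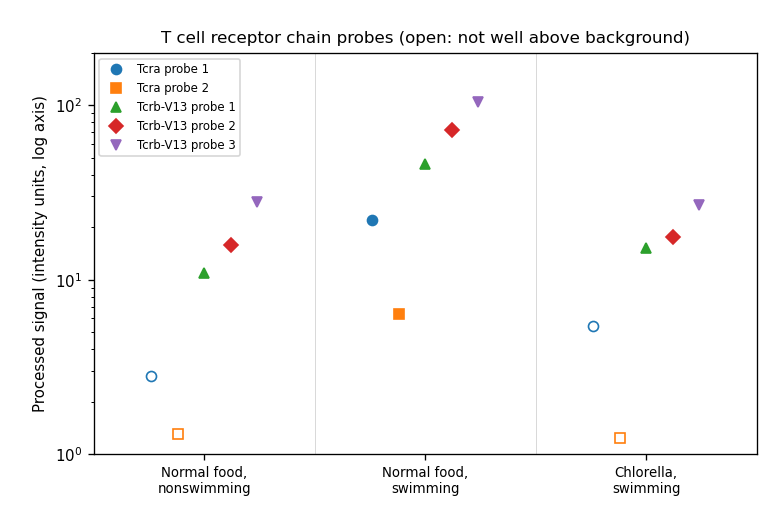
Processed signal (intensity units, log axis) on the 3 arrays of the 5 T cell receptor chain probes well above background on any array; open points are not well above background. The 3 Tcrb-V13 probes are highest on the swimming array, for example 105 against 27.8 and 26.7 for probe 3, and the Tcra probes have filled points on the swimming array alone.

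Among other genes of T cell receptor signalling and the T cell surface, a minority passed 2-fold. Of 26 such genes, 14 were measured in swimming against nonswimming, 2 of them at least 2-fold higher and none lower, with a median of 0.76 beside -0.04 for all measured genes. Cd5, a damper of receptor signalling, had a difference of 1.89 ± 0.32 and Lcp2, the adaptor SLP-76, one of 1.02 ± 0.22. The adaptor gene Lat was well above background on the swimming array alone, with a signal of 35.5 beside 5.73 and 5.52, and Skap1 and Cd2 were the others past 2-fold by their bounds. Zap70, the kinase that docks on the phosphorylated chains, read 9.42, 15.9 and 9.73, within 2-fold. With Chlorella against swimming 4 of 13 measured genes were lower, Cd2 (-1.90 ± 0.34), Vav1 (-1.65 ± 0.22), Lcp2 (-1.65 ± 0.24) and Fyb (-1.51 ± 0.21), none was higher, and the median was -0.44. Vav1 is also in the pan-leukocyte list below and is counted in both, so these lists are not separate, and genes of this list need not mark T cells alone. In Chlorella against nonswimming 0 of 12 measured genes were past 2-fold, with a median of -0.12. Thy1, Prkcq and Cd27 were well above background on all arrays and within 2-fold in all comparisons, and Cd28, Ctla4 and Cd40lg were not well above background on any array.

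T cell transcription factors and cytokine or homing receptors went both ways. Of 23 genes 15 were measured in swimming against nonswimming, and 2 were at least 2-fold higher, among them Il2rb, an interleukin 2 receptor chain with a difference at the 2-fold limit. Ifng, the gene of interferon gamma (-2.06 ± 0.36), and Gata3 (-1.05 ± 0.24) were lower, and the median was -0.06. Ifng read 26.4, 6.53 and 5.12 on the nonswimming, swimming and Chlorella arrays, so its highest value was on the nonswimming array. Of 10 genes measured in Chlorella against swimming, Cxcr3 (-1.80 ± 0.35), Il2rb (-1.47 ± 0.29) and Tcf7 (-1.02 ± 0.34) were lower, S1pr1 (1.06 ± 0.20), which is also known from blood vessels, was higher, and the median was 0.06. In Chlorella against nonswimming 1 of 10 measured genes was past 2-fold, Cxcr3 (-1.29 ± 0.36), with a median of -0.18, and Gata3 and Ifng were lower by their bounds, at log2 differences of -2.01 and -1.81 or beyond. Ccr7 and Il7r, receptors of naive T cells, were well above background on the swimming array alone, at 20.0 and 23.7. Foxp3, the factor of regulatory T cells, was not well above background on any array.

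The genes of NK cells and cytotoxic effectors were mostly dim. Of 29 genes, 7 were well above background in the nonswimming pool, 14 in the swimming pool and 4 in the Chlorella pool, and their summed scaled signal was 256, 511 and 210 percent of the 75th percentile. The largest part of that sum on each array came from 1 gene, Tyrobp, with processed signals of 414, 815 and 233. The sum therefore says little about the dimmer genes of the list. Of 6 measured in swimming against nonswimming, 4 were at least 2-fold higher and none lower, with a median of 1.30: Ctsw (1.78 ± 0.29), the chemokine gene Ccl5 (1.60 ± 0.21), the adaptor gene Hcst (1.51 ± 0.23) and Cd244 (1.08 ± 0.31). Of 4 measured in Chlorella against swimming, Hcst (-2.02 ± 0.25), Ccl5 (-1.50 ± 0.21) and Tyrobp (-1.49 ± 0.20) were lower, with a median of -1.50, and in Chlorella against nonswimming 0 of 4 were past 2-fold. Gzma, Prf1, Klrd1 and Klrb1c were well above background on the swimming array alone, with signals of 28.5, 9.71, 29.5 and 11.7. The NK receptor genes Klrk1, Klrc1, Klra1, Klra8 and Ncr1 were not well above background on any array, so the label NK rests on few of the receptors that define those cells. Gzmm read 112, 107 and 106 and, like Gzmb, showed no peak on the swimming array.

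Genes of other cell types moved with the T and NK cell genes, and their part in the result was not tested. In swimming against nonswimming, 12 of 12 measured neutrophil markers, 6 of 7 B cell markers, 6 of 7 erythroid markers and 7 of 11 pan-leukocyte genes were at least 2-fold higher, with medians of 3.70, 3.22, 3.43 and 1.16. With Chlorella against swimming, 10 of 10, 4 of 5, 2 of 3 and 10 of 10 were at least 2-fold lower, with medians of -6.65, -3.66, -2.06 and -2.06. The summed scaled signal of the neutrophil markers was 1698, 28243 and 368 percent of the 75th percentile on the nonswimming, swimming and Chlorella arrays, and that of the B cell markers was 110.5, 822 and 92.9 percent. Most of the neutrophil sum on each array came from 1 gene, S100a9, with processed signals of 3502, 61080 and 673. All 14 neutrophil markers, 13 of 14 B cell markers and 12 of 12 erythroid markers were well above background on the swimming array. In Chlorella against nonswimming 8 of 10 measured neutrophil markers, 0 of 5 B cell markers, 1 of 3 erythroid markers and 2 of 10 pan-leukocyte genes were at least 2-fold lower, and by bounds 2 further neutrophil, 2 B cell and 3 erythroid markers. Of thymocyte and early lymphoid genes 2 of 3 measured were higher on the swimming array, with a median of 1.57, and the same 2 were lower with Chlorella, with a median of -1.23: Dntt, the terminal transferase of developing lymphocytes (2.64 ± 0.24 and -3.30 ± 0.30), and Cd1d1 (1.57 ± 0.20 and -1.23 ± 0.20). Rag1 was well above background on the swimming array alone, at 16.4, and Rag2 and the pre-T cell receptor gene Ptcra on no array.

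Most measured markers of macrophages, dendritic cells, mast cells, lymph node stroma and skeletal muscle lay within 2-fold in swimming against nonswimming. Some of them, such as Mpeg1 and Lyz2, were still highest on the swimming array, as Lck and Nkg7 were. None of 14 measured macrophage and dendritic cell markers and none of 7 mast cell markers was past 2-fold in swimming against nonswimming, with medians of 0.01 and -0.11. With Chlorella against swimming 3 of 15 and 2 of 7 were lower, with medians of -0.63 and -0.87. In Chlorella against nonswimming 2 of 14 macrophage and dendritic cell markers, Emr1 (-1.13 ± 0.20) and Fcgr1 (-1.05 ± 0.21), and 4 of 7 mast cell markers were at least 2-fold lower, with medians of -0.70 and -1.16. Of 4 measured lymph node stroma markers, Ccl19, a chemokine that attracts T cells, was higher on the swimming array (1.34 ± 0.21, median 0.36), and Cxcl13 was lower with Chlorella (-1.80 ± 0.26, median -0.40), also against nonswimming (-1.06 ± 0.27, median 0.22). Of 12 skeletal muscle markers 1 was past 2-fold in swimming against nonswimming, Mb (-1.04 ± 0.20, median -0.14), and none in Chlorella against swimming or nonswimming, with medians of 0.36 and 0.21.

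**Figure D5:**
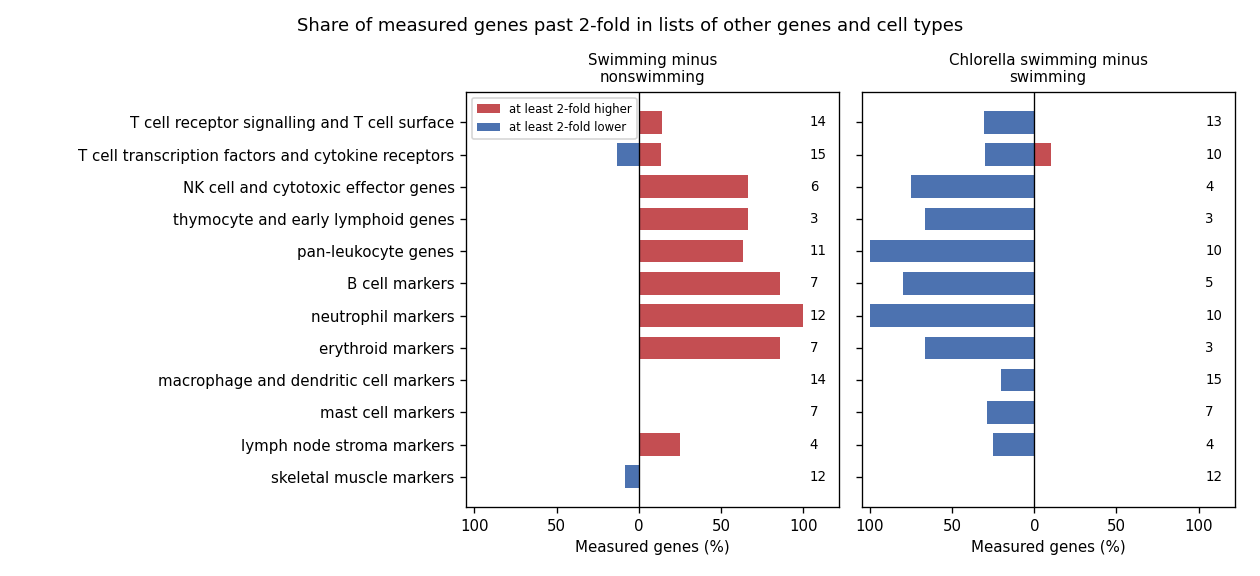
Share of measured genes, in percent, that were at least 2-fold higher (red, to the right) or lower (blue, to the left) in each list of other genes and cell types, with the number measured at the right of each panel; the 10 T and NK cell genes themselves are not in these lists. All 12 measured neutrophil markers were higher on the swimming array and all 10 lower with Chlorella, while 2 of 14 genes of T cell receptor signalling were higher and 4 of 13 lower.

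The genes whose pair of differences lay nearest to that of Cd3e over the 3 arrays were Rbmx2, Ndrg1, Hexim1, Tnfrsf11a and Tmem158, at log2 distances of 0.011 to 0.017. Since 1661 of 10098 genes (16.4%) lay within the scanner error of Cd3e, 0.25, this flat pattern picked out no small set. For Lck, examined after its values were seen, the nearest genes were Glyat, Wfdc2, Ltb, Slc17a3 and Slc3a1, at distances of 0.040 to 0.21, and 18 genes (0.178%) lay within its error of 0.34. Only 5.14% of measured genes were at least 2-fold higher in swimming against nonswimming, so few could lie near Lck. The small share is thus no sign of a distinct set. Ltb, the gene of lymphotoxin beta, read 132, 833 and 112 on the nonswimming, swimming and Chlorella arrays, and Slc17a3 and Slc3a1 encode transporters known from kidney.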

How the data were processed

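Per the labels' protocols, each array received Cy3-labelled RNA of 1 group, pooled from 10 mice. The arrays shared 1 slide and 1 scan, per the file headers. The deposited scanner files hold intensity values, the processed signal with its error and flags, and the submitters' processing notes name Agilent Feature Extraction, version 9.5. The authors' deposited table holds log2 values of 13683 spots with unstated centring, and it entered through column differences alone. Its column medians were 0.0076, -0.0052 and 0.010. After 1 constant per comparison, 55.8% to 56.6% of its differences lay within 0.01 log2 of those of the same spots in the scanner files, with r of 0.71 to 0.82. For genes with 1 spot the share was at least 99.5%. Means over spots matched 99.6% of genes with 2 bright spots and 3.94% to 8.31% of the other genes, for which the authors' computation stays unknown.

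Control spots and flagged spots were left out, spots of 1 probe were averaged, and log2 signals were taken minus the 75th percentile of each array (285.9, 295.0 and 237.8 units on the nonswimming, swimming and Chlorella arrays). Of 41169 probes, 23842, 24857 and 23448 were well above background on these arrays and 0 were saturated. A gene was read from its brightest probe and counted at 2-fold where both arrays were well above background. The median scanner error was 10.0% of a probe's signal. Having 1 array per group limits the precision.

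The 10 genes and the lists were chosen with earlier results of these data known. Named genes were all 10 genes with every probe, up to 4 genes per list and comparison that passed 2-fold and lay farthest from 0, and the 5 genes nearest to Cd3e; others named with signals were picked after their values were seen. The scaling was also done by cyclic loess, by quantile normalization, by the array median, and by the percentile of probes well above background on all arrays. Other alternatives were normexp with an offset of 50, no filter, a signal minimum of 50, the mean over probes, the authors' table, 1.5-fold, and the 95% limit of the scanner error. Leaving out probes on another chromosome than their gene was added after the data were seen. Python 3.11.15, pandas 2.3.3, numpy 2.4.6, R 4.3.3 and limma 3.58.1 (normalization only) were used, and the counting was tested on simulated data. RefSeq names and promoters are of assembly GRCm38.p6. A result withheld for evaluation is left out of the text.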

Additional observations from a re-analysis of the deposited data

How the results depend on the processing

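No paired analysis was possible because each group had 1 array and the labels give no replicate numbers. Of the counts of genes past 2-fold, 66 values under an alternative lay within 1.5 times the count reported, 45 of them 0 against 0. The 3 genes higher in the authors' table were Lck, Cd8b1 and Nkg7, without Cd3d. With no filter on dim probes, 5 genes were higher in swimming against nonswimming (Cd3d, Cd3g, Lck, Cd8a and Nkg7, against 3), 5 were lower in Chlorella against swimming (Cd3d, Cd3g, Lck, Nkg7 and Gzmb, against 2) and 1, Gzmb, was lower in Chlorella against nonswimming (against 0). In that last comparison 1 gene, Nkg7, was lower at 1.5-fold and also with the mean over probes, which took in a signal not well above background. With normexp correction 1 gene, Nkg7, was lower in Chlorella against swimming. The Cd8b1 differences turned from 0.17 and 0.34 to 2.60 and -2.24 without the chromosome 5 probe, so that the direction with Chlorella reversed.

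Over all measured genes, 810 were higher and 170 lower in swimming against nonswimming, 386 and 42 with normexp, 2123 and 1282 with no filter, and 1475 and 699 at 1.5-fold. In Chlorella against swimming the counts were 218 and 758, 51 and 302 with normexp, 1260 and 2010 with no filter, and 928 and 1430 at 1.5-fold. The share of these that were higher in swimming against nonswimming was 82.7%, and 70.5% with median centring and 62.3% with no filter. In Chlorella against swimming it was 22.3%, 33.2% and 38.5%. With median centring the all-gene medians were -0.19 and 0.21. Signals near background limit Cd3g and Cd8a to bounds, and Cd3d and Gzmb to bounds in the comparisons with the Chlorella array. The array files hold no measure of the spread between mice.

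Some list medians moved by more than 1.5 times. With normexp the NK cell median was 0.51 in swimming against nonswimming and -0.85 in Chlorella against swimming, that of T cell receptor signalling 0.33 and -0.18, and those of B cell and erythroid markers in swimming against nonswimming 2.13 and 2.06. With no filter the NK cell median in Chlorella against swimming was -0.98, the thymocyte medians were 0.71 and -0.81, the erythroid median in Chlorella against swimming was -3.75, and that of T cell transcription factors changed sign to -0.48. With the mean over probes the latter list's median in swimming against nonswimming changed sign to 0.39.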
